A study of Mus musculus with 18 samples.

Results

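The lysyl oxidases and the procollagen C-proteinase with its enhancers were followed as 8 genes, chosen by symbol: Lox, Loxl1, Loxl2, Loxl3 and Loxl4, then Bmp1, Pcolce and Pcolce2. All 8 were found among the 47643 genes of the deposited table, and all 8 passed the filter on low counts that left 14309 genes for testing. Their RNA was measured in MPC3, a mouse prostate cancer cell line, in 18 libraries that fall into 3 groups of 6. The control group carries the name plko in the labels and the treatment Control. The other groups, shRNF185.1 and shRNF185.3, each received a different short hairpin RNA against Rnf185, a gene for a membrane-bound ubiquitin ligase. A short hairpin RNA is transcribed in the cell and lowers the messenger RNA that it matches. Every group holds replicates 1 and 2 from batch 1, replicates 3 and 4 from batch 2, and replicates 5 and 6 from batch 3, as the labels name them. The model is a single cell line. The labels do not say whether the replicates came from separate cultures, and p-values measure only the spread between these libraries.

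Fibrillar collagens leave the cell as procollagens with a propeptide at each end. The C-proteinase BMP1 cuts off the C-terminal propeptide, the proteins encoded by Pcolce and Pcolce2 speed up that cut, and the trimmed molecules then assemble into fibrils. Lysyl oxidases are secreted copper enzymes that oxidise lysines of collagen and elastin, and the aldehydes so formed become covalent cross-links. BMP1 also activates the LOX precursor, so both enzyme classes act in one sequence of steps.

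The target was checked first. Rnf185 was at 35.9 ± 1.96 CPM (counts scaled to library size, as deposited; SD, n = 6) in control, 5.81 ± 0.582 in shRNF185.1 and 5.80 ± 0.546 in shRNF185.3, a log2 fold change of -2.63 with either hairpin (edgeR, adjusted p = 9.3e-15 and 1.91e-14). Total counts ran from 22027395 to 43379662 per library. Epithelial markers moved with the hairpins: of 6 listed, 4 were tested, all 4 fell with shRNF185.1 and 3 fell with shRNF185.3, and their summed level ran from 1439 to 1775 CPM in control, 896 to 1210 in shRNF185.1 and 960 to 1060 in shRNF185.3. Krt5 and Epcam, also on that list, had at most 22 counts summed over any group. Of 7 mesenchymal markers 5 were tested: with shRNF185.1 Pdgfrb rose (0.36) and Dcn fell (-2.11), and with shRNF185.3 Pdgfra (0.46), Pdgfrb (0.58) and Acta2 (1.98) rose. Their sum, mostly Vim, which was not called with either hairpin, was 3027 to 3941 in control, 3551 to 3903 in shRNF185.1 and 3591 to 3967 in shRNF185.3. Of 4 prostate markers 3 were tested, 2 rose with shRNF185.1 and 1 with shRNF185.3, and the list summed to 84.3 to 122, 108 to 152 and 103 to 126. Leukocyte markers summed to at most 5.11 with Cd3e at 0 in every library (Cd68, the one tested, fell by 0.68 with shRNF185.1), and endothelial markers to at most 0.748. The part of these marker shifts in the results on the 8 genes was not tested. In bulk RNA, a change in the number of cells of one state and a change in RNA per cell cannot be told apart.

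Paralogs with near-identical stretches can exchange reads, so the closest coding stretches of the family were compared at the read length of 75 bases. They are shown because they bear on whether a change in one member could be counted in another. Sequences are from GRCm38 with GENCODE M21 gene models, are written 5′ to 3′ on the gene's own strand, and have the letters that differ within a pair in capitals. The Loxl1 stretch lies in coding exons at chr9:58293683-58294386 (minus strand, across 1 intron) and differs at 4 positions from its counterpart in Lox.
Loxl1, closest to Lox: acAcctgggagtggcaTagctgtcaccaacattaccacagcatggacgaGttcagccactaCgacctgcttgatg
Loxl2 and Loxl4 come closest at chr14:69682315-69689078 (plus strand) and chr19:42598766-42599900 (minus strand), again across 1 intron, and differ at 9 positions.
Loxl2, closest to Loxl4: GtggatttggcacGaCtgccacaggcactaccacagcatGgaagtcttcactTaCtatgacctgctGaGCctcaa
Loxl4, closest to Loxl2: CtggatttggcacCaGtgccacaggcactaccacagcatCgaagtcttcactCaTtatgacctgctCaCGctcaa
The Loxl2 stretch nearest to Loxl3 differs from it at 12 positions and overlaps the previous one (Loxl3 at chr6:83050017-83050189, plus strand).
Loxl3, closest to Loxl2: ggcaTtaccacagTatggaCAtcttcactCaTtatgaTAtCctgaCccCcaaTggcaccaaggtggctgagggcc
Pcolce and Pcolce2 differ at 20 positions in their closest stretch, within a single exon at chr5:137607463-137607537 (minus strand) and chr9:95681540-95681614 (plus strand).
Pcolce, closest to Pcolce2: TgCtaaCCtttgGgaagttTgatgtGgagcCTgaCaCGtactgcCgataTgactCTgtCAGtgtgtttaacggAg
Pcolce2, closest to Pcolce: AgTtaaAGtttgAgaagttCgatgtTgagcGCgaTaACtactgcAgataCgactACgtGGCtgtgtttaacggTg
No pair of members shared a coding stretch of a whole read without a mismatch. The share of 75-base windows that also occurred in genes outside the family was highest for Loxl2. It was next for Pcolce (0.926% of windows, with Fbxo24) and 0% for the other members. Of the Loxl2 windows, 43.6%, taken over all exonic stretches of 75 bases, also occurred in another gene, 42.7% in the pseudogene Gm21451 on the same chromosome. Gm21451 was listed at 0 in 17 of 18 libraries and at 6.57 counts in the other, replicate 2 of shRNF185.1. The deposited Loxl2 count therefore includes any read of the shared windows that was assigned to it. The antisense gene Gm27177 overlaps Loxl2 exons and was at 15.6 ± 8.23, 11.5 ± 6.24 and 21.4 ± 5.92 CPM in control, shRNF185.1 and shRNF185.3. Exons of Lox, Loxl3 and Pcolce also overlap genes on the opposite strand (AC161119.1, Htra2 and Gm36266). The library kit marks strand, but the strand setting of the counting is not given in the sources used here.

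Levels of different genes were compared per kilobase of exonic length. Lox led in control at 333 CPM per kb and Pcolce followed at 151. Loxl4 at 22.1, Bmp1 at 15.5, Loxl3 at 15.5 and Pcolce2 at 13.7 formed a middle tier, in which neighbours overlapped between libraries. Loxl2 at 4.96 and Loxl1 at 3.52 were the lowest and also overlapped. With shRNF185.1 Loxl1 stood at 11.6 and Loxl2 at 10.3 CPM per kb, and with shRNF185.3 Loxl1 stood at 6.24 and Loxl2 at 9.57. Lox made up 87.7% ± 2.10 (SD, n = 6) of the family's summed level per length in control, 87.7% ± 1.24 with shRNF185.1 and 87.9% ± 0.535 with shRNF185.3. The share of Loxl1 was 0.938%, 2.29% and 1.39% in the same order.

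**Figure D1:**
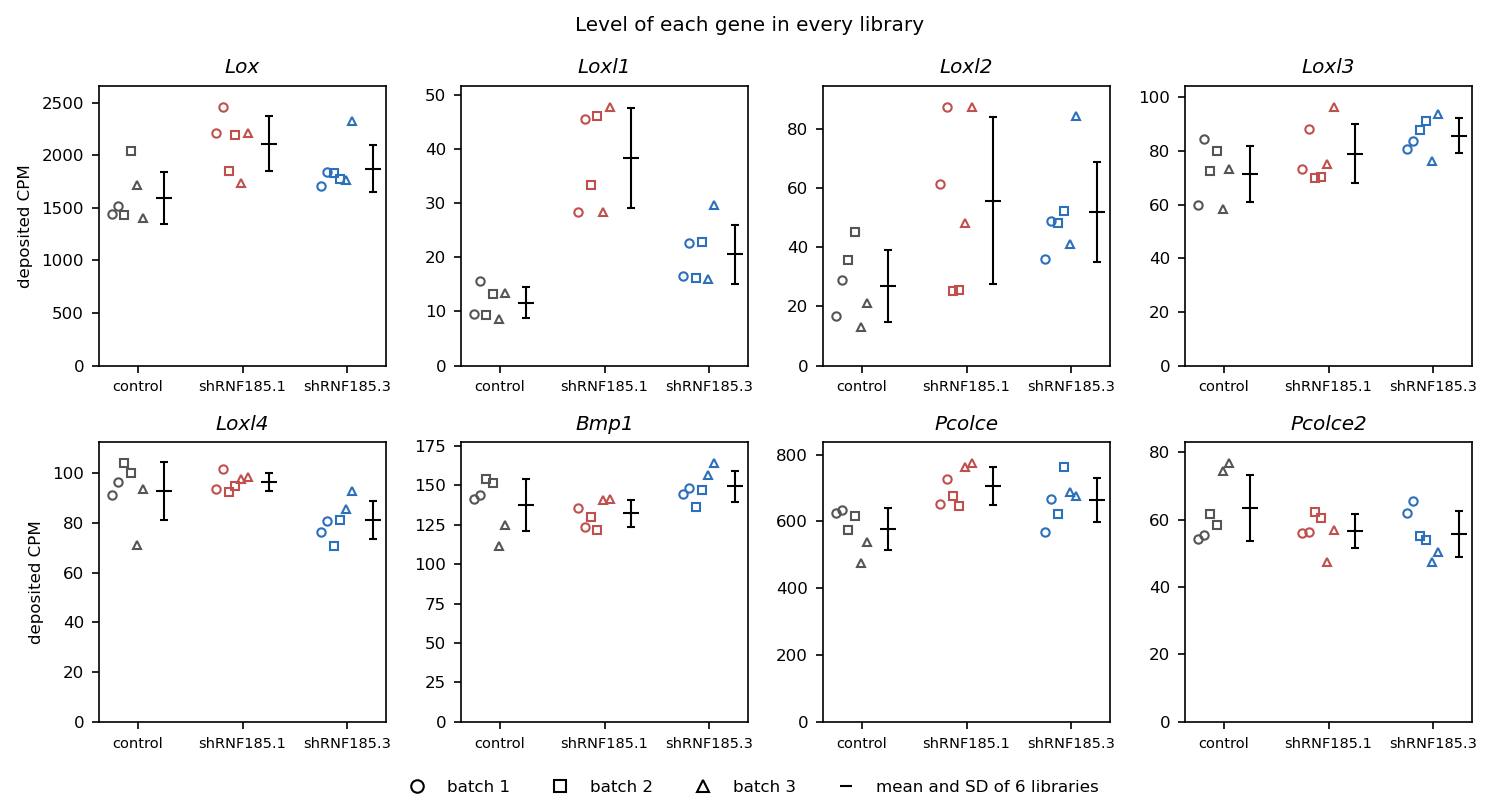
Deposited CPM (y axis, linear from 0, a scale per panel) of the 8 genes by group (x axis); points are libraries, marked by batch, and bars are group means with SD. All shRNF185.1 and shRNF185.3 libraries of Loxl1 lie above the highest control library at 15.6 CPM, while the Loxl2 groups overlap.

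Each hairpin was then compared with control to ask which of these genes moved when Rnf185 was lowered. With shRNF185.1, 4 of 8 were called at an adjusted p under 0.05, all higher (Lox, Loxl1, Loxl2 and Pcolce), beside 28.9% of all genes tested called in either direction and 14.6% called higher. With shRNF185.3, 3 of 8 were called, all higher (Loxl1, Loxl2 and Loxl3), beside 27.3% of all genes called and 14.2% called higher. Loxl1 and Loxl2 were thus called higher with both hairpins, and none of the 8 was called lower with either, beside 14.3% and 13.1% of all genes; both comparisons share the control libraries. The median log2 fold change of all genes tested was -0.02 in either comparison.

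**Figure D2:**
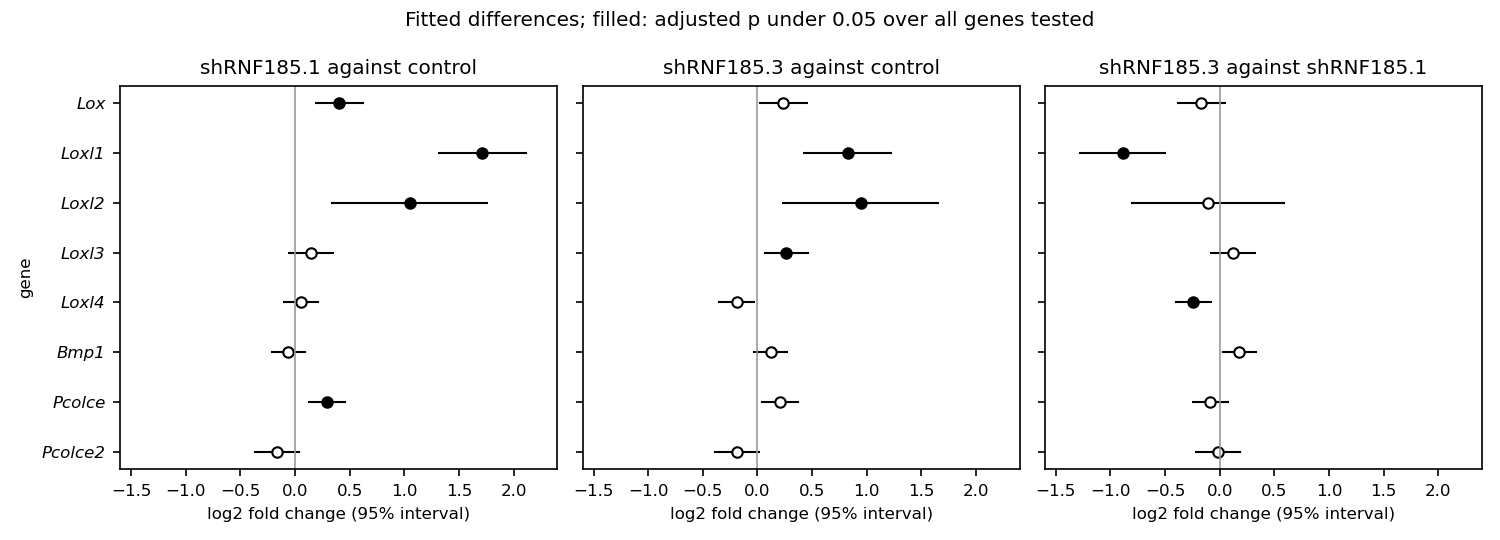
Fitted log2 fold changes (x axis) of the 8 genes (y axis) with 95% intervals, for each hairpin against control and for shRNF185.3 against shRNF185.1; filled points have an adjusted p under 0.05 over all genes tested. Loxl1 has the highest fold change with shRNF185.1, at 1.71, and is lower with shRNF185.3 than with shRNF185.1.

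Loxl1 (ENSMUSG00000032334, chr9:58287738-58313186, minus strand) encodes the lysyl oxidase known for elastic fibre upkeep. Its level ran from 8.56 to 15.6 CPM in control (median 11.4), from 28.3 to 47.8 in shRNF185.1 (median 39.5) and from 16.0 to 29.6 in shRNF185.3 (median 19.5). No hairpin library overlapped control, a separation upward that 7.02% of all genes showed with shRNF185.1 and 7.6% with shRNF185.3. Loxl1 rose by a log2 fold change of 1.71 (SE 0.19, 95% interval 1.31 to 2.11) with shRNF185.1 (edgeR, adjusted p = 2.11e-06). It rose by 0.83 (SE 0.19, 0.43 to 1.23) with shRNF185.3 (adjusted p = 0.00316). Every batch showed a positive difference, of 1.55, 1.80 and 1.78 for shRNF185.1 and of 0.66, 0.77 and 1.02 for shRNF185.3. Within a group and batch the even-numbered library was the higher one in 9 of 9 pairs, by 1.37 to 1.86 times.

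Lox (ENSMUSG00000024529, chr18:52516067-52529867, minus strand) encodes the founding enzyme of the family, which acts on both collagen and elastin. Control libraries ran from 1400 to 2041 CPM (median 1482), shRNF185.1 from 1740 to 2461 (median 2200) and shRNF185.3 from 1704 to 2321 (median 1805). Control replicate 4 was the highest control library, and 4 of 6 libraries of shRNF185.1 and 1 of 6 of shRNF185.3 exceeded it. The shRNF185.1 group overlapped control through that library alone. In shRNF185.3, replicate 1 at 1704 CPM also lay below control replicate 5 at 1719. Lox rose by 0.41 on the log2 scale (SE 0.10, 0.19 to 0.62) with shRNF185.1 (adjusted p = 0.00554), with batch differences of 0.66, 0.23 and 0.34. Without batch 1 this was 0.28 and not called (adjusted p = 0.201). With shRNF185.3 the difference was 0.24 (adjusted p = 0.0956), with batch differences of 0.26, 0.08 and 0.38. It was called without control replicate 4, at 0.32 (adjusted p = 0.0154). With single libraries left out it ran from 0.17 to 0.32, with adjusted p up to 0.242. In the 12 other alternatives it ran from 0.15 to 0.32 (adjusted p = 0.0568 to 0.394) and was called in 0.

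Loxl2 (ENSMUSG00000034205, chr14:69609068-69695834, plus strand) encodes a lysyl oxidase with scavenger receptor domains, known for cross-linking type IV collagen of basement membranes. Its level ran from 13.0 to 45.3 CPM in control (median 25.04), from 25.1 to 87.4 in shRNF185.1 (median 54.7) and from 36.2 to 84.1 in shRNF185.3 (median 48.4). The groups overlapped, and with each hairpin 4 of 6 libraries exceeded the highest control value. Control was highest in batch 2, at 35.8 and 45.3 CPM, and there the shRNF185.1 libraries were lower, at 25.1 and 25.4. In batches 1 and 3 the shRNF185.1 libraries lay between 48.1 and 87.4, above control at 13.0 to 28.8 CPM. The log2 difference with shRNF185.1 was 1.73 in batch 1, -0.67 in batch 2 and 1.96 in batch 3, and its interaction with batch passed the test (edgeR, adjusted p = 0.00714), as did 14.3% of all genes.

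Over all batches the Loxl2 difference was 1.05 (SE 0.34, 0.34 to 1.76; adjusted p = 0.0248) with shRNF185.1. It was 0.95 (SE 0.34, 0.24 to 1.66; adjusted p = 0.0443) with shRNF185.3, where the batch differences were 0.93, 0.31 and 1.82 and the interaction did not pass (adjusted p = 0.176). Both calls rested on the batches: without batch 2 the differences were 1.83 and 1.39 (adjusted p = 0.000578 and 0.00445), and without batch 3 they were 0.65 and 0.55 (adjusted p = 0.267 and 0.370). Without batch 1 they were 0.68 and 0.96 (adjusted p = 0.341 and 0.163). With a batch covariate the differences were 1.028 and 0.93 (adjusted p = 0.0533 and 0.0747), and with the libraries of a group and batch summed they were 1.05 and 0.95 (adjusted p = 0.121 and 0.161), so neither was called. Without the filter on low counts the shRNF185.3 difference was 0.93 (adjusted p = 0.0581). The shRNF185.1 call was lost without control replicate 1, 5 or 6 or shRNF185.1 replicate 2 or 6 (0.88 to 0.99, adjusted p = 0.0517 to 0.0687). The shRNF185.3 call was lost when any of 10 libraries was left out (0.75 to 1.00, adjusted p = 0.0508 to 0.120): control replicates 1, 2, 5 and 6, shRNF185.1 replicate 1 and shRNF185.3 replicates 2 to 6.

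**Figure D3:**
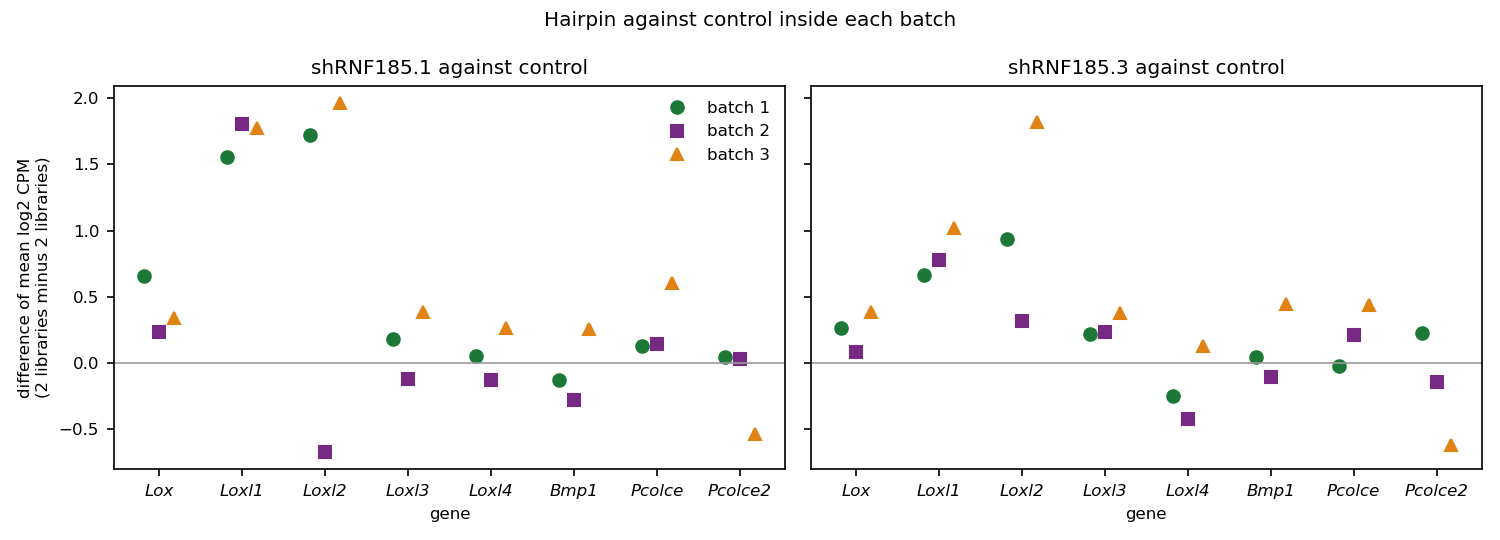
Difference of mean log2 CPM between each hairpin and control within batch 1, 2 and 3 (y axis) for each of the 8 genes (x axis). Loxl1 is above 0 in every batch with both hairpins, and Loxl2 with shRNF185.1 is at -0.67 in batch 2 against 1.73 and 1.96 in the other batches.

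Loxl3 (ENSMUSG00000000693, chr6:83034173-83052562, plus strand) encodes a close relative of Loxl2. Control libraries ran from 58.5 to 84.3 CPM (median 72.8), shRNF185.1 from 70.1 to 96.5 (median 74.3) and shRNF185.3 from 76.4 to 93.9 (median 85.8). All groups overlapped, with 3 of 6 shRNF185.3 libraries above the highest control library. Loxl3 rose by 0.27 (SE 0.10, 0.07 to 0.47) with shRNF185.3 (adjusted p = 0.0460), with batch differences of 0.22, 0.23 and 0.38, and was at 0.14 with shRNF185.1 (adjusted p = 0.279). The shRNF185.3 call was lost when any of 11 of the 18 libraries was left out (0.21 to 0.28, adjusted p = 0.0516 to 0.106): control replicates 1, 3, 5 and 6, shRNF185.1 replicates 1 and 5, and shRNF185.3 replicates 1, 2, 3, 4 and 6. It was also lost without batch 1, 2 or 3 (adjusted p = 0.109, 0.108 and 0.176), with a batch covariate (0.27, adjusted p = 0.0712), with the libraries of a group and batch summed (0.27, adjusted p = 0.0508) and without the filter on low counts (0.25, adjusted p = 0.0948).

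Loxl4 (ENSMUSG00000025185, chr19:42593982-42612813, minus strand) belongs to the same branch of the family as Loxl2 and Loxl3. It ran from 71.3 to 104 CPM in control (median 95.2), from 92.3 to 102 in shRNF185.1 (median 96.4) and from 70.9 to 93.0 in shRNF185.3 (median 81.2). The shRNF185.1 libraries lay inside the control range. Against control the differences were 0.05 (adjusted p = 0.641) and -0.19 (adjusted p = 0.0692). Control replicate 5 stood below the other control libraries, and without it the shRNF185.3 difference was called at -0.26 (adjusted p = 0.00309) and the shRNF185.1 difference was -0.013. Leaving out shRNF185.3 replicate 6 also gave a call, at -0.23 (adjusted p = 0.0343). Leaving out batch 3 gave one at -0.34 (adjusted p = 0.00169). The shRNF185.3 difference was negative in batch 1 (-0.25) and batch 2 (-0.43) but positive in batch 3 (0.13). For shRNF185.1, batch 1 gave 0.05, batch 2 gave -0.13 and batch 3 gave 0.26. Over single libraries left out, the shRNF185.3 difference ran from -0.26 to -0.15, with adjusted p up to 0.148. In the 12 other alternatives it ran from -0.34 to -0.07, with adjusted p up to 0.564.

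Bmp1 (ENSMUSG00000022098, chr14:70474558-70520234, minus strand) encodes the C-proteinase itself. It ran from 111 to 154 CPM in control (median 143), from 121 to 141 in shRNF185.1 (median 133) and from 136 to 164 in shRNF185.3 (median 148). The groups overlapped, and neither difference was called over all batches, at -0.06 (adjusted p = 0.565) and 0.12 (adjusted p = 0.227). Without batch 3 Bmp1 was called lower with shRNF185.1, at -0.21 (adjusted p = 0.0135), and without batch 2 it was called higher with shRNF185.3, at 0.23 (adjusted p = 0.0449). Its batches went opposite ways, with shRNF185.1 at -0.13, -0.28 and 0.26 and shRNF185.3 at 0.04, -0.11 and 0.45. The interaction with batch passed for both (edgeR, adjusted p = 0.0109 and 0.0209), beside 14.3% and 5.18% of all genes. Control replicates 5 and 6, at 111 and 125 CPM, were the lowest of the control group.

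Pcolce (ENSMUSG00000029718, chr5:137605103-137613784, minus strand) encodes the first enhancer, which binds the procollagen propeptide. Control libraries ran from 475 to 633 CPM (median 596), shRNF185.1 from 645 to 775 (median 701) and shRNF185.3 from 568 to 763 (median 671). All 6 libraries of shRNF185.1 and 4 of 6 of shRNF185.3 lay above the highest control library. With shRNF185.1, 7.02% of all genes showed such a full separation upward. Pcolce rose by 0.29 (SE 0.08, 0.13 to 0.45) with shRNF185.1 (adjusted p = 0.00825). The batch differences were 0.13, 0.15 and 0.60, and without batch 3 the value was 0.14 and not called (adjusted p = 0.264). With shRNF185.3 the difference was 0.20 (adjusted p = 0.0580), and without control replicate 2 or shRNF185.3 replicate 1 it was called, at 0.23 to 0.24 (adjusted p = 0.0257 to 0.0459). It was also called without batch 1 (0.32, adjusted p = 0.0395), with scaling by library size alone (0.22, adjusted p = 0.0416) and by DESeq2 (0.21, adjusted p = 0.0340). Its batch differences were -0.03, 0.21 and 0.43. With single libraries left out the value ran from 0.15 to 0.24, with adjusted p up to 0.145. In the other alternatives it ran from 0.10 to 0.32, with adjusted p up to 0.448.

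Pcolce2 (ENSMUSG00000015354, chr9:95637601-95698096, plus strand) encodes the second enhancer. It ran from 54.2 to 76.8 CPM in control (median 60.2), from 47.6 to 62.1 in shRNF185.1 (median 56.6) and from 47.6 to 65.4 in shRNF185.3 (median 54.5). The groups overlapped, and the differences of -0.17 and -0.19 were not called over all batches (adjusted p = 0.210 and 0.164). Without batch 1 the shRNF185.3 difference was called, at -0.39 (adjusted p = 0.0241), and without batch 3 it was 0.043. Control was highest in batch 3, at 74.4 and 76.8 CPM, where the hairpin libraries lay between 47.6 and 56.9. By batch, shRNF185.1 gave 0.04, 0.03 and -0.54 and shRNF185.3 gave 0.22, -0.14 and -0.62. The interaction passed for both (edgeR, adjusted p = 0.00672 and 0.00375), beside 14.3% and 5.18% of all genes. In batch 3 the differences of Pcolce were positive, at 0.60 and 0.43, and those of Pcolce2 negative.

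The hairpins were also compared with each other, since both left Rnf185 at a similar mean level. Of the 8 genes, 2 were called, Loxl1 and Loxl4, both lower with shRNF185.3, beside 14.7% of all genes called in either direction and 6.94% called lower. Loxl1 fell by 0.89 on the log2 scale from shRNF185.1 to shRNF185.3 (SE 0.19, interval -1.28 to -0.50; adjusted p = 0.00262), and 5 of 6 shRNF185.3 libraries lay below the lowest shRNF185.1 library. Its batch differences were -0.89, -1.03 and -0.75, and without batch 2 the value was -0.83 and not called (adjusted p = 0.0545). Loxl4 fell by 0.24 (SE 0.08, interval -0.40 to -0.08; adjusted p = 0.0362), with batch differences of -0.31, -0.30 and -0.14. That call was lost when any of 8 libraries was left out (-0.25 to -0.21, adjusted p = 0.0555 to 0.0856): shRNF185.1 replicates 2, 4, 5 and 6 and shRNF185.3 replicates 1 to 4. It was also lost without batch 1 or 2 (adjusted p = 0.343 and 0.147), with a batch covariate (adjusted p = 0.0634) and with summed libraries (adjusted p = 0.0993). The same held without the filter on low counts (adjusted p = 0.0565) and with the replicate number as a covariate (adjusted p = 0.0613).

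The other 6 genes were not called between the hairpins, and their intervals show what size remained possible. Lox differed by -0.17 (interval -0.38 to 0.05; adjusted p = 0.337) and Loxl2 by -0.10 (-0.80 to 0.59; adjusted p = 0.909). Loxl3 differed by 0.12 (-0.08 to 0.32; adjusted p = 0.497) and Bmp1 by 0.18 (0.03 to 0.33; adjusted p = 0.104), which was called at 0.18 without control replicate 5 (adjusted p = 0.0424) or without batch 3 (adjusted p = 0.0453). The differences of Pcolce and Pcolce2 were -0.09 and -0.02 (adjusted p = 0.577 and 0.945).

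The substrates were counted next. Among 11 fibrillar procollagen genes, all tested, 7 rose and 2 fell with shRNF185.1 (median log2 fold change 1.11), and 9 rose and none fell with shRNF185.3 (median 1.54); the list includes Col3a1, which the series title names, so it is not independent of the study's own interest. Col3a1, the chain of type III collagen, rose by 1.11 (adjusted p = 0.000117) and 1.60 (adjusted p = 2.48e-06). Col1a1, an alpha chain of type I collagen, was at 80.0 ± 25.5 CPM in control, 196 ± 87.8 in shRNF185.1 and 365 ± 126 in shRNF185.3 and rose by 1.29 and 2.19. Col11a1, a minor fibril chain, was at 1.20, 5.12 and 3.68 CPM and rose by 2.08 and 1.60. Col1a2 and Col2a1, named after their values were seen, fell with shRNF185.1 (-0.56 and -1.07) and rose with shRNF185.3 (0.55 and 1.59), and the difference between the hairpins was called for both (adjusted p = 9.65e-06 and 1.16e-06).

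A further list holds the other proteinases of procollagen. Of 8 listed 4 were tested, and 3 rose with either hairpin (medians 0.62 and 1.16): Adamts2, Adamts3 and Adamts14, which remove N-terminal propeptides. Adamts2 was at 46.8 ± 8.0 CPM in control, 82.2 ± 15.0 in shRNF185.1 and 96.5 ± 15.1 in shRNF185.3, with log2 fold changes of 0.81 (adjusted p = 0.000141) and 1.05 (adjusted p = 1.03e-05). Adamts14 was at 9.92, 16.7 and 23.9 CPM, with 0.74 (adjusted p = 0.00272) and 1.27 (adjusted p = 1.86e-05). Furin, which activates many secreted precursors, was at -0.03 and 0.06 and not called. Tll1 and Tll2, the BMP1 relatives that can also cut C-propeptides, had at most 5 counts summed over the 6 libraries of any group. Without batch 1 or without batch 3, only Adamts2 of these 3 was called higher with shRNF185.1.

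Elastic fibre genes, which cover elastin, a lysyl oxidase substrate, and the scaffold of the fibre, were mixed. Of 17 listed 13 were tested; 5 rose and 2 fell with shRNF185.1 (median 0.22) and 6 rose and none fell with shRNF185.3 (median 0.36). Eln, which encodes elastin, had 0 counts in all 18 libraries. Ltbp2, a fibrillin-binding matrix protein, was at 28.9 ± 4.55 CPM in control, 67.8 ± 5.16 in shRNF185.1 and 66.2 ± 3.85 in shRNF185.3 and rose by 1.23 (adjusted p = 6.14e-09) and 1.20 (adjusted p = 1.03e-08). Fbln5, a fibulin that binds both elastin and LOXL1, was at 3.03 ± 0.962, 12.4 ± 2.23 and 5.71 ± 0.872 CPM and rose by 2.03 (adjusted p = 9.44e-08) and 0.92 (adjusted p = 0.000694). Between the hairpins Fbln5 fell, as Loxl1 did: shRNF185.3 stood -1.11 from shRNF185.1 on the log2 scale (adjusted p = 0.000147).

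Genes for lysine modification act in the step before cross-linking. Of 8 listed 6 were tested; 3 rose and 1 fell with shRNF185.1 (median 0.29), and 3 rose with shRNF185.3 (median 0.31). Without batch 1 the counts called higher were 0 and 1, and without batch 3 they were 1 and 0 (edgeR; where the count was 0, 2 genes were higher at an unadjusted p under 0.05). Plod1, a lysyl hydroxylase, went from 55.1 CPM in control to 72.4 and 73.6, with fold changes of 0.39 and 0.42. P3h3, of the collagen hydroxylase complex, went from 6.80 to 10.5 and 10.8, with 0.62 and 0.67. Among 7 copper handling genes, all tested, 1 rose and 1 fell with shRNF185.1 (median 0.07) and 1 fell with shRNF185.3 (median 0.07). The gene that fell in both was Slc31a1, the high-affinity copper importer, at 56.3, 49.3 and 50.2 CPM (-0.19 and -0.16, adjusted p = 0.0155 and 0.0417). These counts moved with the libraries used: with shRNF185.1, 3 copper genes were called higher without batch 2, and 3 were called lower without control replicate 5 or without shRNF185.1 replicate 6. With shRNF185.3 no copper gene was called lower in 17 of 30 alternatives.

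The last lists cover other targets of BMP1 and proteins that join collagen fibrils. Of 10 other BMP1 substrates 8 were tested; 3 rose and 1 fell with shRNF185.1 (median -0.08), and 4 rose and 2 fell with shRNF185.3 (median 0.34). Hspg2, the basement membrane proteoglycan perlecan, rose from 417 CPM to 666 and 587 (0.67 and 0.50), and Ogn, a small leucine-rich proteoglycan, from 0.669 to 2.28 and 3.40 (1.78 and 2.37). Of 10 fibril assembly partners 8 were tested; 5 rose and 2 fell with shRNF185.1 (median 0.48) and 6 rose and none fell with shRNF185.3 (median 0.54). Fmod, which encodes the fibril-binding fibromodulin, went from 2.98 CPM to 5.89 and 12.2 (0.98 and 2.03), and Tnxb from 8.28 to 13.3 and 15.4 (0.68 and 0.91). For each list the counts stand beside 28.9% and 27.3% of all genes called.

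**Figure D4:**
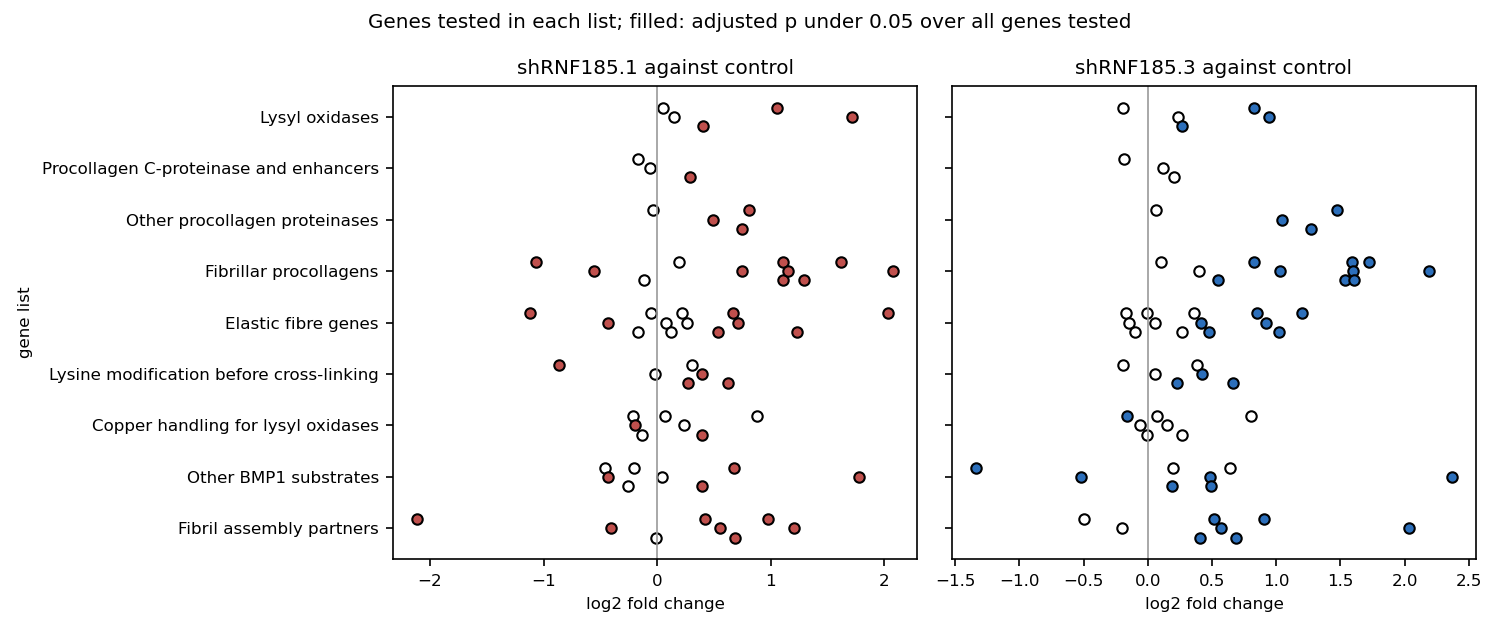
Log2 fold changes (x axis) of the genes tested in each list (y axis) for each hairpin against control. Points are genes, filled where the adjusted p is under 0.05, and the vertical line marks no change. The fibrillar procollagens have medians of 1.11 and 1.54, while copper handling genes have a median of 0.07 with either hairpin.

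The genes whose log2 CPM followed each member most closely over the 18 libraries were found by Pearson r, given as a description since the libraries share groups and batches. For Loxl1 they were Evl (r = 0.972), an actin regulator, and Cavin1 (0.948), a coat protein of caveolae. For Loxl2 they were Pdia4 (0.959), a disulfide isomerase of the endoplasmic reticulum, and Mpp2 (0.957). For Loxl3 they were Creb3l1 (0.925), a membrane-bound transcription factor, and Heph (0.907), a copper-dependent ferroxidase. Lox was closest to 2510009E07Rik (0.893) and Eid2b (0.883), Loxl4 to Ubl7 (0.928) and Stat6 (0.905), and Bmp1 to Ano8 (0.927) and Btbd2 (0.914). Pcolce was closest to Tpgs1 (0.917) and Mknk2 (0.899), and Pcolce2 to Sltm (0.911) and Ankrd26 (0.904). Among the 8 genes themselves, Loxl2 and Loxl3 were the closest pair (0.853) and Pcolce and Pcolce2 the most opposed (-0.734).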

How the data were processed

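Polyadenylated RNA of 18 MPC3 libraries was sequenced with a strand-marking kit as single-end reads of 75 bases, per the labels' protocols. The submitters' processing notes name cutadapt 2.3, STAR 2.7.0d, RSEM 1.3.1 and the build mm10. The deposited values are estimated counts, adjusted for batch by ComBat-Seq per the labels; whether that adjustment was told the groups is not given in the sources used here. Of these values 0.466% were not whole, none of them in the 8 genes, and all were rounded to whole numbers. The deposited CPM are a normalised signal whose columns sum to between 969986 and 1026394. Each column named its own sample.

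The tests used edgeR 4.0.16 under R 4.3.3, with filterByExpr with a minimum count of 10, TMM scaling, a mean per group over all 18 libraries, the two-sided quasi-likelihood F test and Benjamini-Hochberg adjustment over 14309 genes, with genes called at an adjusted p under 0.05. Every adjusted p in the text comes from this fit or a named alternative. Fold changes are log2, and standard errors were derived from the F statistic. The scripts were tested on simulated data. Differences within a batch are those of mean log2 CPM with a prior count of 2. Positions and lengths are from GENCODE M21 on GRCm38, by Ensembl identifier.

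Members and lists were chosen with earlier results of these data known. Beside the members, Rnf185 and Col3a1, a list's genes were named if called in one direction with both hairpins, at most 2 upward and 2 downward by their smaller change, at a mean of at least 1 CPM, and for each member the 2 genes with the highest Pearson r. The test of the interaction between hairpin and batch was chosen after seeing the data. Alternatives were DESeq2 1.42.0, limma 3.58.1, other scalings, filters and covariates, and leaving out batches or libraries. Over 45 pairs of libraries within a group, none agreed within sampling noise.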

Additional observations from a re-analysis of the deposited data

Results flagged for a closer look

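Among 24 sets of 6 libraries (8 genes in 3 groups), 2 had a library far from the rest by Dixon's test, where chance gives about 1 in 20 sets, or 1.2 here. The highest shRNF185.3 library of Lox, replicate 6, was at 11.18 on the log2 CPM scale and the next at 10.85. The lowest control library of Loxl4, replicate 5, was at 6.16 and the next at 6.52.

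The hairpins differed from each other in Loxl1, by -0.89 on the log2 scale from shRNF185.1 to shRNF185.3, and in Loxl4, by -0.24. The effect of a hairpin differed between batches in 3 genes by the edgeR test of the interaction. That test passed in 14.3% of all genes with shRNF185.1 and in 5.18% with shRNF185.3. For Pcolce2 the adjusted p was 0.00672 with shRNF185.1 and 0.00375 with shRNF185.3. For Bmp1 it was 0.0109 with shRNF185.1 and 0.0209 with shRNF185.3. For Loxl2 it was 0.00714 with shRNF185.1. The deposited counts had already been adjusted for batch; the cause was not tested.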

How the results depend on the processing

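Loxl1 was called higher under each of the 30 alternatives with both hairpins, at 1.63 to 1.81 and 0.69 to 0.93 on the log2 scale. Members called with shRNF185.1 were 4, 3 with a batch covariate, 3 with the libraries of a group and batch summed, 2 without batch 1, 3 without batch 3, and 3 to 4 with a library left out. With shRNF185.3 they were 3, but 4 with scaling by library size alone or by DESeq2, and 2 without batch 3. They were 1 without the filter on low counts, with a batch covariate or with the libraries of a group and batch summed. With a library left out they were 1 to 4. Between the hairpins they were 2, but 1 without the filter, with the batch covariate, with summed libraries or without batch 1. They were 0 without batch 2 (edgeR, 3 at an unadjusted p under 0.05), 3 without batch 3, and 1 to 3 with a library left out. All genes called fell from 4141 to 2207 without batch 1 with shRNF185.1. With shRNF185.3 they fell from 3906 to 2120 without batch 1 and 2501 without batch 3, and between the hairpins from 2098 to 753 without batch 1 and 1208 without batch 2. With shRNF185.1 they rose to 5119 without batch 2, which leaves the same number of libraries; the cause was not tested. Over all alternatives, fibrillar procollagens called higher numbered 6 to 7 with shRNF185.1 and 9 to 10 with shRNF185.3, other procollagen proteinases 1 to 3 and 3, lysine modification genes 0 to 4 and 0 to 3, and copper handling genes 0 to 3 and 0 to 1 (lower, 0 to 3 and 0 to 1).

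Differences that changed sign belonged to genes not called in that comparison. With shRNF185.1 they were Bmp1 without batch 2 (0.057), Loxl4 without batch 3 (-0.038) or control replicate 5 (-0.013, the lowest of -0.013 to 0.088 over single libraries left out), and Pcolce2 without batch 3 (0.033). With shRNF185.3 they were Bmp1 (-0.033) and Pcolce2 (0.043) without batch 3. Between the hairpins, Loxl2 was at 0.022 by limma-voom, 0.012 and 0.014 on deposited CPM with a pseudocount of 1 and 0.25, 0.28 without batch 1 and -0.30 to 0.070 with single libraries left out (above 0 without shRNF185.1 replicate 2 or 6). Pcolce2 was at 0.053 without batch 2, 0.010 without batch 3 and -0.070 to 0.022 with single libraries left out. The cause was not tested.

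Deviations of same-numbered libraries from different groups correlated at a mean of -0.01 over 18 pairs, 4 of them over 0.1. Of 18 libraries, 0 correlated best with its own number. Where an odd library was set against an even one from its batch, the mean was -0.43 over 18 pairs, 1 of them over 0.1. Across batches the mean was 0.11. The counts had been adjusted for batch and the deviations were taken from group means, so a mean of -0.01 cannot exclude pairing by number. Same-number pairs were closer on average than odd and even libraries of a batch, so the number was not without structure inside a batch. With the number as a block, 4, 2 and 1 members and 3811, 3578 and 1976 genes were called in the 3 comparisons. The lowest count of any of the 8 genes in a library was 228, for Loxl1.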

Other observations

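Loxl1, Loxl2 and Loxl3 were each higher in the even-numbered than in the odd-numbered library in 9 of 9 pairs of the same group and batch, with median ratios of 1.56, 1.43 and 1.20. The even-numbered library was higher in 8 of 9 pairs for Loxl4, 7 for Lox, 7 for Pcolce, 6 for Bmp1 and 6 for Pcolce2. The same count was not made over all genes, so the pattern cannot be called particular to these 8. The labels do not say what sets the odd and even numbers of a batch apart.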
